A study of Mus musculus with 15 samples.

Results

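The miR-17-92 family is a group of mouse microRNAs made from paralogous clusters, examined here in foetal testes with and without TEX15, a protein that male germ cells need for fertility. Members were chosen by name, as every mature microRNA named miR-17, miR-18, miR-19, miR-20, miR-25, miR-92, miR-93, miR-106 or miR-363 with any letter or arm suffix. This gave 29 of the 1305 mature microRNA names found in the 6 small RNA libraries. The members held 787650 reads in 252 distinct sequences, and 25 of the 29 names were found in every library.

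The small RNA libraries came from E16.5 foetal testes of mice on a mixed B6CBAF1/Crl; C57BL/6N strain background, with 6 testes pooled in each library. The 3 control libraries were Tex15+/- and the 3 knockout libraries Tex15-/-, so that the controls also carried 1 null allele. The null allele was made by editing exon 5, and the mice that carried it descended from 1 founder. The labels do not say that same-numbered libraries shared a litter, so p-values measure the spread between these pools. RNA-seq of E16.5 gonocytes, the foetal male germ cells, was available for 3 Tex15+/- and 3 Tex15-/- samples of the same strains, sorted by a Miwi2 tdTomato allele that both groups carried in the heterozygous state. The 3 postnatal day 20 Tex15-/- testis samples were not used here.

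MicroRNAs are cut from hairpins in longer transcripts, and 1 strand of the hairpin (the 5p or the 3p arm) is usually kept on an Argonaute protein, where bases 2 to 8, the seed, pair with target mRNAs. The miR-17-92 cluster is known for promoting proliferation and survival, is activated by MYC proteins, and was named an oncogene for its effect in lymphoma. Its members fall into seed families, and the members of a seed family share many of their known targets. Among the best known of those targets is the pro-apoptotic protein Bcl2l11 (BIM).

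All 16 hairpins were placed on GRCm38 from RefSeq. The miR-17-92 cluster lies at chr14:115043671-115044506 on the plus strand, with 6 hairpins inside an exon of the long non-coding RNA gene Mir17hg. The miR-106b-25 cluster lies at chr5:138165321-138165818 on the minus strand inside the protein-coding gene Mcm7. Mir106b overlapped no Mcm7 exon, whereas Mir25 and Mir93 were intronic in 2 overlapping transcripts and fell in an exon of 1 other. The miR-106a-363 cluster lies at chrX:52741693-52742567 on the minus strand, in no annotated host, apart from 5 bases of Mir106a that overlap the non-coding gene Kis2. Mir92b stands alone at chr3:89227116-89227198 on the minus strand and overlaps no other annotated gene.

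The seeds divide the main members into families, and the sequences are shown because the levels are described by seed first. Of the 29 names, 27 had a mature sequence in RefSeq (GRCm38.p6), and miR-19a-5p and miR-363-5p had none. Each line gives a mature sequence with its seed in capitals. The 6 members with the seed AAAGUGC come from all 3 clusters.
miR-17-5p: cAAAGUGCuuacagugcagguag
miR-20a-5p: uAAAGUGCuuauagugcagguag
miR-20b-5p: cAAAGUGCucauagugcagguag
miR-106a-5p: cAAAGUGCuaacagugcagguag
miR-106b-5p: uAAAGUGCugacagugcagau
miR-93-5p: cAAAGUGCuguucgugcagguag
The 4 members with the seed AUUGCAC are 3p arms.
miR-25-3p: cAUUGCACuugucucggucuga
miR-92a-3p: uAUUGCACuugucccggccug
miR-92b-3p: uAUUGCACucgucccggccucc
miR-363-3p: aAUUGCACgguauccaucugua
The miR-18 and miR-19 families have 1 seed each, AAGGUGC and GUGCAAA.
miR-18a-5p: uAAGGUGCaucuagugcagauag
miR-18b-5p: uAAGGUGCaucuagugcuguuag
miR-19a-3p: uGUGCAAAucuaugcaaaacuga
miR-19b-3p: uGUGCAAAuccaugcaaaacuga
With positions counted from 1 at the 5′ end, miR-17-5p and miR-20a-5p differ by C1U and C12U, and miR-106a-5p differs from miR-17-5p by A10U alone. Identity within the AAAGUGC family ran from 76.2% (miR-106b-5p and miR-93-5p) to 95.7% (miR-106a-5p and miR-17-5p) over the bases compared. miR-363-3p shared 40.9% of its bases with miR-25-3p, although both carry the same seed.

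Levels are given as reads per 1000000 mature microRNA reads (RPM). The libraries held between 5671330 and 34180789 mature microRNA reads, which were 41.1 to 50.7% of all reads of 18 to 32 nt. Tex15KO replicate 2 stood apart, with 24.7% of its reads at 25 to 30 nt, the size of piRNAs, against 32.3 to 36.7% in the other 5 libraries. The summed microRNAs that mark other cell types overlapped between the groups and were not tested. The germ cell list (9 of 9 microRNAs found, from the miR-290 and miR-302 groups) summed to 3055 to 3379 RPM in the control and 3082 to 4657 in the knockout, the endothelial miR-126a to 37689 to 47526 and 31422 to 41059, the blood list (6 of 6 found) to 477 to 596 and 546 to 898, and miR-143 with miR-145a, of mesenchyme and smooth muscle, to 13115 to 17524 and 14565 to 19387. miR-202, of gonadal somatic cells, was at 2351 to 2473 and 1755 to 2523. Tex15KO replicates 1 and 2 lay outside the control range for germ cells (4215 and 4657), miR-126a (31422 and 31429) and miR-143 with miR-145a (19387 and 18298). Tex15KO replicate 3 lay within it for these (3082, 41059 and 14565). In Tex15KO replicates 1, 2 and 3 the blood list was at 600, 898 and 546, and miR-202 at 1755, 2466 and 2523. No summed list was at 0, although 2 names of the germ cell list and 1 of the blood list were at 0 in at least 1 library. The part of cell composition in the results that follow was not tested. In whole testis, fewer cells of a type and less RNA per cell cannot be told apart.

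miR-25-3p was by far the most abundant member and was the 29th most abundant of all mature names. Its levels were 6392, 7072 and 7338 RPM in the control libraries and 6688, 6249 and 6745 in the knockout libraries. The groups overlapped. miR-106b-3p was next, at the 76th place, followed by miR-20a-5p at the 80th, miR-17-5p at the 105th, miR-93-5p at the 107th, miR-92a-3p at the 148th and miR-363-3p at the 163rd. miR-17-5p and miR-93-5p were close, at 517 and 514 RPM over all libraries. miR-17-5p was the higher in every control library and in Tex15KO replicate 3, and miR-93-5p in Tex15KO replicates 1 and 2. The 7 members ranked here were the only ones that reached a mean of 100 RPM, counting reads listed as mature. Of the other 22, 7 were below 1 RPM, among them miR-20a-3p and miR-18b-3p, the little-used arms of their hairpins. miR-18b-3p, miR-19b-2-5p, miR-20b-3p and miR-92a-2-5p had 0 reads in 2, 5, 4 and 3 libraries, where a level of up to 0.0878 to 0.529 RPM, by library (3 reads), is allowed by counting error alone. No read was listed under miR-106a-3p.

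The 6 members with the seed AAAGUGC were lower in every knockout library than in any control library. The 4 with the seed AUUGCAC, from the same clusters and, for miR-92b-3p, from its own locus, were not. Of all 580 names tested, 17.4% were lower in RPM in every knockout library and 6.72% higher. Summed, the AAAGUGC members were at 2968, 2609 and 3052 RPM in the control and 1552, 1185 and 2154 in the knockout (2876 ± 235 against 1630 ± 489, SD, n = 3 each), a log2 ratio of -0.82. The sum without miR-20a-5p had a log2 ratio of -0.75. Sums by seed were not planned, unlike those by cluster, and were not tested. The AUUGCAC members summed to 7308 ± 477 and 6982 ± 262 RPM (SD, n = 3 each), a log2 ratio of -0.066, and those groups overlapped. With the trimmed mean of M-values (TMM) scaling used in the fit, the ratio of the AUUGCAC sum was positive, at 0.086, and that of the AAAGUGC sum was -0.68. miR-6383 and miR-32-5p with miR-367-3p are the other mature names with these 2 seeds. miR-6383 was not found, and miR-367-3p was close to 0. miR-32-5p averaged 207 RPM, with 255, 192 and 307 in the control and 139, 134 and 216 in the knockout, which overlapped.

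**Figure D1:**
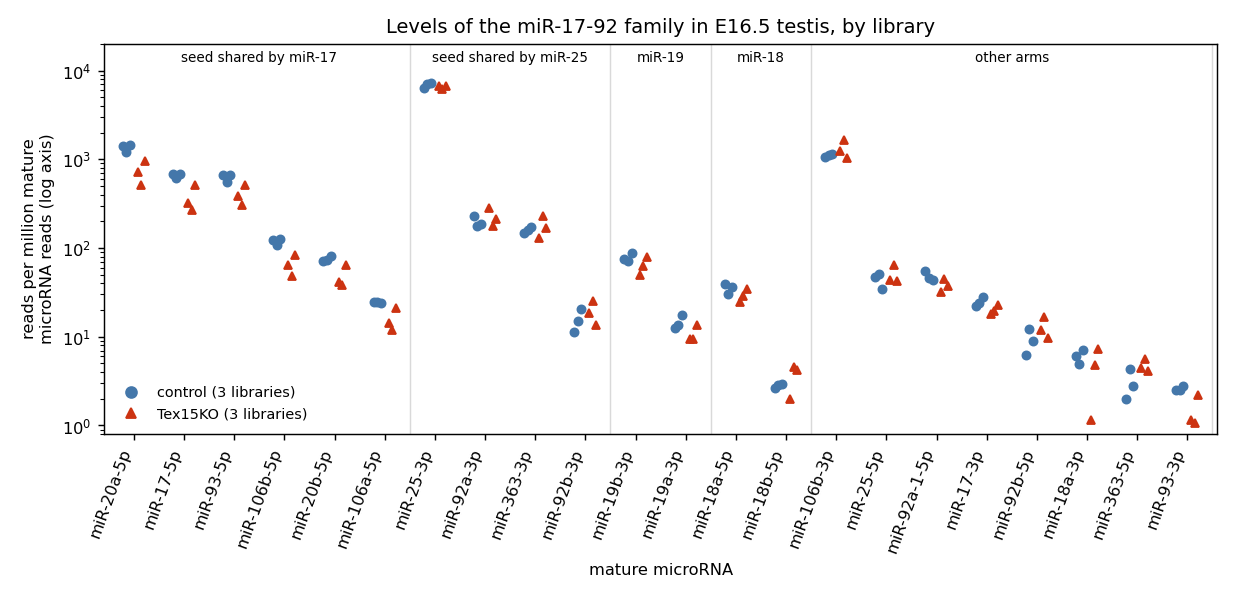
Levels of the 22 members tested, in RPM on a log axis, with 1 point for each library (circles control, triangles Tex15KO). The 6 members that share the seed of miR-17 have all triangles below all circles, as do 17.4% of all 580 names tested. miR-25-3p, at 6249 to 7338 RPM, does not.

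miR-20a-5p, of the miR-17-92 cluster, had the most reads listed as mature in this seed family. It was at 1408, 1218 and 1470 RPM in the control libraries and 721, 515 and 953 in the knockout libraries. Every knockout library was below every control library, and Tex15KO replicate 3 was the nearest to the controls. The fitted log2 fold change was -0.76 ± 0.21 (SE), but with an unadjusted p of 0.00887 it did not pass after adjustment over all 580 names tested (adjusted p = 0.287, edgeR quasi-likelihood test).

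miR-17-5p, which gives the cluster its name, stood at 678, 624 and 689 RPM in the control and 323, 267 and 519 in the knockout. Again the groups did not overlap and Tex15KO replicate 3 was the highest of its group. Its log2 fold change was -0.71 ± 0.23 (SE; adjusted p = 0.358, edgeR quasi-likelihood test).

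miR-93-5p is processed from the Mcm7 hairpin cluster. Its levels were 661, 561 and 661 RPM in the control libraries and 387, 303 and 511 in the knockout libraries. The groups did not overlap, and the knockout libraries had the same order as for miR-17-5p. The log2 fold change was -0.50 ± 0.19 (SE; adjusted p = 0.364, edgeR quasi-likelihood test).

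The remaining 3 members of the seed family had lower levels and the same order of groups. miR-106b-5p ranged over 108 to 126.5 RPM in the control and 48.7 to 84.2 in the knockout, miR-20b-5p over 72.1 to 80.6 and 38.8 to 65.3, and miR-106a-5p over 24.1 to 24.98 and 12.0 to 21.2. Their log2 fold changes were -0.71, -0.50 and -0.49. Of the 22 members that passed the filter on low counts, 5 had an unadjusted p under 0.05, and those 5 were in this seed family (miR-20a-5p, miR-106b-5p, miR-17-5p, miR-93-5p and miR-20b-5p). Of all 580 names, 79 did. The log2 fold changes of the other 16 members tested ran from -0.64 (miR-93-3p) to 0.71 (miR-363-5p).

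None of the 22 members tested was called at an adjusted p under 0.01 or under 0.05 in either direction by edgeR, and the smallest adjusted p of any member was 0.287. DESeq2 called none either, with a smallest adjusted p of 0.0760. Over all 580 names, edgeR called 0% lower and 0% higher at 0.01, and 0.345% lower and 0.517% higher at 0.05. DESeq2 called 11 of the 580 at 0.01 and 16 at 0.05, both directions together. By the overlap of libraries, 7 of the 22 members (31.8%) had every knockout library below every control library, against 17.4% of all names, and none was above, against 6.72%. The seventh was miR-93-3p, the minor arm of its hairpin, at about 2 RPM. These percentages depend on the scaling. With TMM scaling, the same 7 members were below, against 10.2% of all names, and 10.5% of all names were above.

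The median log2 fold change was -0.15 over the members tested and -0.01 over all names tested. Scaling to the total without TMM factors moved the median of all names to -0.15 and that of the AAAGUGC members from -0.61 to -0.75. Their lowest and highest log2 fold changes were -0.76 and -0.49 with TMM. They are 23 nt long, except miR-106b-5p at 21 nt. The 87 names of 23 nt had a median log2 fold change of -0.08, and the 279 names of 22 nt one of 0.01.

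The values of the AAAGUGC members rested on no single library for their direction. Without Tex15KO replicate 2, the AAAGUGC members had log2 fold changes of -0.57 to -0.34, and without Tex15KO replicate 3 of -0.98 to -0.68. In the latter case the smallest adjusted p was 0.0748 (edgeR quasi-likelihood test).

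**Figure D2:**
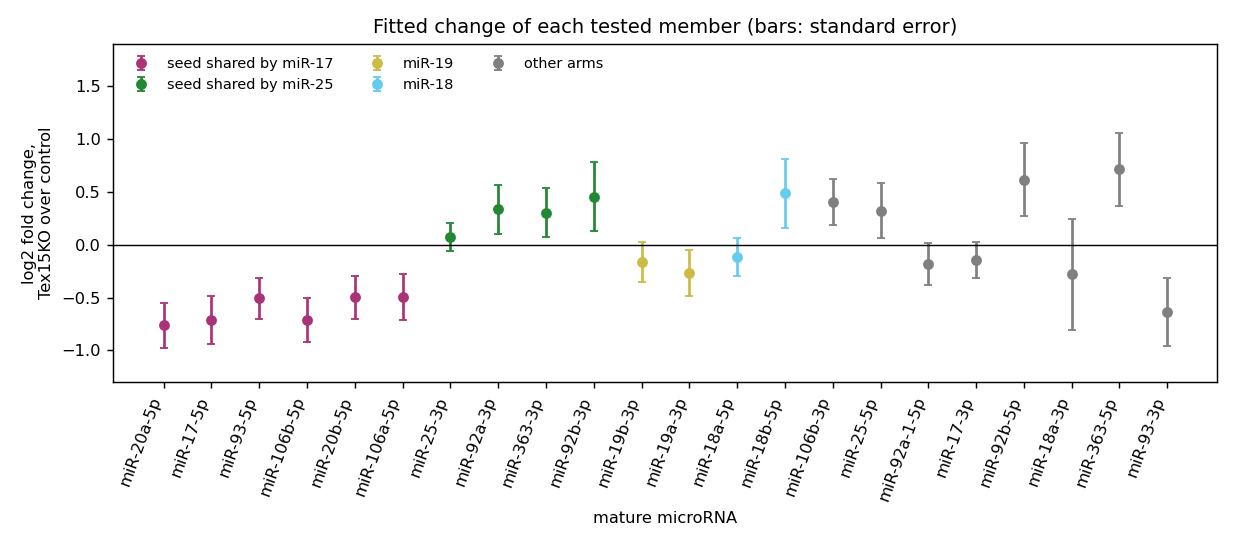
Log2 fold change (Tex15KO over control, edgeR) of each of the 22 members tested, as a point with its standard error, coloured by seed family. The AAAGUGC members lie between -0.76 and -0.49 and the AUUGCAC members between 0.07 and 0.46; no member passed an adjusted p of 0.05.

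The 4 members of the AUUGCAC seed had positive log2 fold changes in the TMM-scaled fit, none of which passed the test. miR-25-3p had a log2 fold change of 0.07 ± 0.13 (SE; adjusted p = 0.807, edgeR quasi-likelihood test), and its sign was negative (-0.08) without TMM factors. miR-92a-3p, encoded by both Mir92-1 and Mir92-2 with the same sequence, so that the 2 loci cannot be separated, was at 233, 179 and 186 RPM in the control and 286, 177 and 213 in the knockout. The groups overlapped, and its log2 fold change was 0.33 ± 0.24 (SE; adjusted p = 0.499, edgeR quasi-likelihood test). It was 0.067 without Tex15KO replicate 1 and 0.081 with reads of every class counted. miR-363-3p, from the end of the X-linked cluster, was at 147, 158 and 172 RPM in the control and 131, 229 and 171 in the knockout. Tex15KO replicate 2 was the highest of the 6 libraries and Tex15KO replicate 1 the lowest. The log2 fold change was 0.30 ± 0.23 (SE; adjusted p = 0.542, edgeR quasi-likelihood test), and 0.052 without Tex15KO replicate 2. miR-92b-3p had the lowest level of the 4, at 11.2 to 20.4 and 13.6 to 25.2 RPM with overlapping groups. Its log2 fold change was 0.46 ± 0.32 (SE, adjusted p = 0.499, edgeR quasi-likelihood test), and ran from 0.19 to 0.67 under the alternative settings.

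The miR-19 seed members, known as the main oncogenic component of the cluster, were low among mature reads. miR-19b-3p ranged over 71.9 to 87.95 RPM in the control and 49.1 to 78.4 in the knockout, and miR-19a-3p over 12.5 to 17.7 and 9.52 to 13.7. The miR-18 seed members were at 30.3 to 39.7 and 24.97 to 34.2 (miR-18a-5p) and at 2.67 to 2.93 and 1.997 to 4.58 (miR-18b-5p). All 4 overlapped between the groups, with log2 fold changes of -0.27 (miR-19a-3p), -0.16 (miR-19b-3p), -0.11 (miR-18a-5p) and 0.49 (miR-18b-5p).

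Apart from miR-106b-3p, described with its hairpin, the remaining 14 members were arms with a mean under 50 RPM. miR-25-5p ranged over 34.5 to 51.0 RPM in the control and 42.6 to 64.0 in the knockout, miR-92a-1-5p over 43.2 to 55.2 and 32.1 to 45.1, and miR-17-3p over 22.2 to 28.2 and 18.3 to 22.8. miR-92b-5p ranged over 6.17 to 12.3 and 9.67 to 16.9, miR-18a-3p over 4.92 to 7.03 and 1.14 to 7.36, miR-363-5p over 2.002 to 4.301 and 4.10 to 5.64, and miR-93-3p over 2.49 to 2.81 and 1.06 to 2.21. Of these 7, miR-93-3p alone did not overlap. Below 1 RPM, miR-20a-3p was at 0.351 to 0.667 and 0.176 to 0.285, miR-19b-1-5p at 0.556 to 1.17 and 0.210 to 1.28, and miR-19a-5p at 0.0293 to 0.234 and 0.105 to 0.529. miR-92a-2-5p reached 0.0878 and 1.94, miR-18b-3p 0.205 and 0.143, miR-20b-3p 0.117 and 0.105, and miR-19b-2-5p 0.0585 and 0.

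Summed by cluster, the 10 names particular to miR-17-92 were at 2224, 1962 and 2293 RPM in the control and 1132, 892 and 1588 in the knockout, with no overlap and a log2 ratio of -0.84. Most of this sum was miR-17-5p and miR-20a-5p, at 2029 ± 166 and 1099 ± 348 RPM (SD, n = 3 each). The other 8 names summed to 138, 119.6 and 134 in the control and 87.9, 109.9 and 116 in the knockout, a log2 ratio of -0.32. The 6 names of miR-106b-25 summed to 8286, 8905 and 9312 and to 8426, 8330 and 8417, which overlapped, with a log2 ratio of -0.07. The 9 names of miR-106a-363 summed to 249, 264 and 283 and to 193, 291.6 and 266, also overlapping, with a log2 ratio of -0.09. The ratios of these last 2 clusters became positive with TMM scaling, at 0.08 and 0.06, while that of miR-17-92 was -0.70. miR-106b-25 gave 74.8 to 78.1% of all member reads in the control and 79.5 to 85.0% in the knockout, most of it miR-25-3p. All 29 members together were at 11561 ± 569 and 10166 ± 397 RPM (SD, n = 3 each) without overlap. This did not hold with TMM scaling, where the sums were 10966 ± 333 and 10711 ± 324 and overlapped.

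The arms of 1 hairpin are made from the same transcript. Both are counted in the same library, so their ratio does not depend on the scaling of the libraries. It does depend on which reads were listed as mature. The 3p share of the mature reads of miR-106b was 89.5, 91.2 and 90.1% in the control libraries and 95.1, 97.2 and 92.5% in the knockout libraries. Every knockout library was higher, with a difference of 4.63 percentage points. The miR-106b-3p level was 1059, 1111 and 1149 RPM in the control and 1241, 1664 and 1032 in the knockout, with overlapping groups (log2 fold change 0.41 ± 0.22, SE; adjusted p = 0.395, edgeR quasi-likelihood test), beside the miR-106b-5p levels described above. The miR-106b-3p value was 0.18 without Tex15KO replicate 2 and 0.25 without TMM factors. Reads of every class put the control means at 1368 RPM for miR-106b-3p and 346 for miR-106b-5p, a smaller excess of the 3p arm than among mature reads. The 3p share of miR-17 was 3.17, 3.67 and 3.93% in the control and 5.34, 6.82 and 4.21% in the knockout, higher by 1.87 percentage points without overlap. That difference was 0.988 points with reads of every class counted, an alternative chosen after seeing the data, and 1.19 without Tex15KO replicate 2, while that of miR-106b was 7.19 points with reads of every class. For both hairpins the two-sided exact permutation p was 0.10, the smallest that 3 libraries against 3 can give (adjusted p = 0.328 over the 164 hairpins tested). The shares of the 7 other hairpins with both arms (miR-18a, miR-19a, miR-20a, miR-25, miR-363, miR-92b and miR-93) overlapped between the groups. Over all 164 hairpins, 13.4% had a higher 3p share in every knockout library and 17.1% a lower one, so that 2 of 9 is near that background.

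The arms that were kept differed between hairpins and not only between clusters. miR-17, miR-18a, miR-20a and miR-93 gave mostly 5p reads, with mean control 3p shares of 3.59, 14.5, 0.0334 and 0.414%. miR-25, miR-19a and miR-363 gave almost only 3p reads, at 99.4, 99.1 and 98.1%. miR-92b was the most even, at 62.9% ± 7.35 (SD, n = 3). The hairpin of miR-106b is printed with both mature arms in capitals because its 2 arms carry different seeds and had different levels.
Mir106b: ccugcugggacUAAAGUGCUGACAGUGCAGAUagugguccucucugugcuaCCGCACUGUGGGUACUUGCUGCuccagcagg
It lies at chr5:138165737-138165818 on the minus strand (GRCm38.p6), and is given in the orientation of the transcript.

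**Figure D3:**
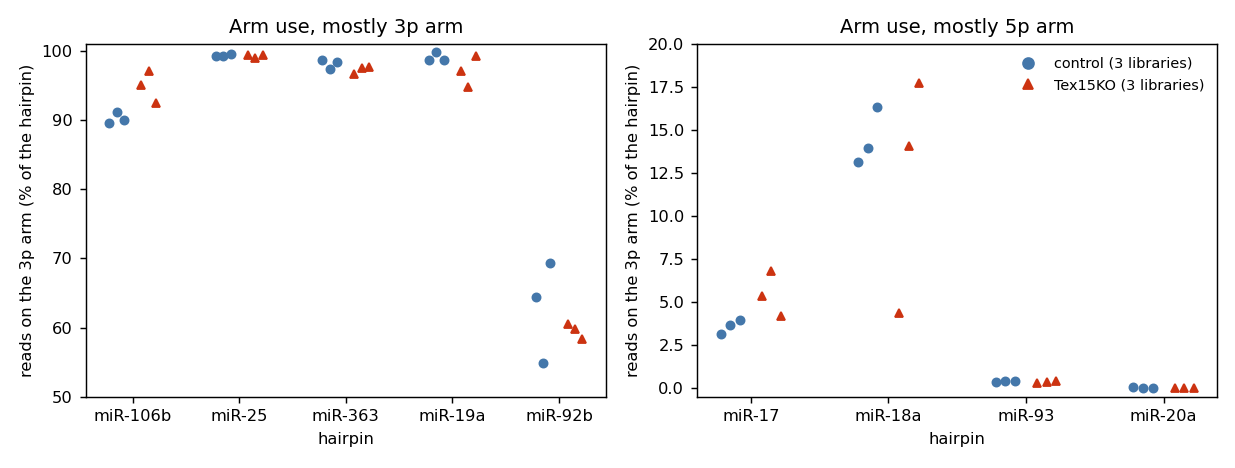
Share of each hairpin's mature reads on its 3p arm, in percent, for 9 hairpins with both arms, with 1 point for each library (circles control, triangles Tex15KO; the axes of the panels differ and the left axis starts at 50%). The triangles lie above the circles for miR-106b and miR-17 and overlap them for the other 7.

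The 5′ end of a microRNA sets its seed. For 16 of 17 members with at least 50 reads in every library, 95.3% or more of mature reads began at the RefSeq 5′ end in every library. Reads listed as mature lay within the RefSeq sequence, so this share counts bases missing at the 5′ end and not reads that began upstream of it. miR-363-3p was the exception. Its share was 76.4, 74.9 and 73.4% in the control libraries and 75.5, 77.5 and 74.0% in the knockout libraries, and between 22.5 and 26.6% of its reads began 1 base further in. Those reads carry a seed shifted by 1 base from AUUGCAC. The groups overlapped for all 17 members, against 4.55 and 6.49% of 308 names that were higher or lower in every knockout library, and the miR-363-3p difference was 0.78 percentage points (two-sided exact permutation p = 0.60).

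The 3′ end of a read bears on whether it was counted as a member. Reads that began with the first 16 bases of a member and ended past or differently from the mature sequence were listed under repeats, genes or hairpins. Reads of every listed class that began so were collected for 17 members with at least 100 of them in every library. This comparison was chosen after the values were seen. All of the reads were listed as mature microRNA, repeat, gene or hairpin, so an end that matched none of these may be missing. Reads extended by the next bases of the hairpin were at 0% in every library for miR-19b-3p and miR-92b-3p. For miR-92a-3p they were at 0 to 0.0145%. Whether such reads were absent or unlisted was not tested. Reads ending within the mature sequence made up 92.4% of miR-20a-5p in the control, 81.3% of miR-25-3p and 48.7% of miR-17-5p, but 23.6% of miR-92a-3p and 13.6% of miR-19a-3p. The median over all names examined, taken in each group and averaged over control and knockout, was 79.2%.

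Single sequences made up much of the remainder, and frequent ones are shown as sequenced (T for U), with bases past the RefSeq mature sequence, or that differ from it, in capitals.
miR-17-5p with an added base: caaagtgcttacagtgcaggtagA
miR-106a-5p with an added base: caaagtgctaacagtgcaggtagA
miR-106b-5p with an added base: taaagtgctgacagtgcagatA
miR-19a-3p with a changed end: tgtgcaaatctatgcaaaactgT
miR-92a-3p with added bases: tattgcacttgtcccggcctgTAAT
miR-92a-3p with an added base: tattgcacttgtcccggcctgC
The added A of miR-17-5p and miR-106a-5p is not in their hairpins, whereas that of miR-106b-5p is the next base of its hairpin. The miR-17-5p read made up 35.5, 39.8 and 39.2% of the reads that begin as miR-17-5p in the control and 44.6, 45.6 and 43.8% in the knockout. It was listed as a repeat, and 99.1% of the repeat reads of miR-17-5p were under the name B4A, a short interspersed element. The miR-106b-5p read, at 42.5 to 47.6% and 42.1 to 51.4%, was listed as hairpin. miR-19a-3p with a final T in place of A made up 68.0 to 70.1% and 68.1 to 73.6%, also listed as repeats, and the mature class held a mean of 13.1% of the reads of miR-19a-3p over the 6 libraries.

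Reads of miR-17-5p with a tail of A alone were 37.7, 42.6 and 41.8% in the control and 47.2, 48.9 and 45.8% in the knockout, without overlap (two-sided exact permutation p = 0.10, adjusted p = 0.992 over 272 names with a hairpin). The A tails of miR-106b-3p were fewer without overlap, at 1.86 and 1.27% on average, and the other 15 members overlapped. Of the 272 names, 2.21% had more A tails in every knockout library and 6.99% fewer. Reads ending within the mature sequence were fewer, at 50.9, 47.1 and 48.1% against 42.2, 42.0 and 45.7% (two-sided exact permutation p = 0.10). miR-106b-5p also had a lower share within the mature sequence in every knockout library (34.5% ± 0.555 against 29.6% ± 1.87, SD, n = 3 each) and miR-106b-3p a higher one (80.7% ± 0.389 against 84.1% ± 1.79). The other 14 members overlapped. Of all names examined, 3.05% were lower and 11.5% higher in every knockout library.

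With reads of every class counted, the AAAGUGC members were still lower in every knockout library. miR-17-5p was at 1327, 1325 and 1431 RPM in the control and 765, 636 and 1131 in the knockout, a log2 ratio of -0.69. In this count miR-20a-5p was at 1508.5, 1331 and 1590 RPM in the control and 783, 568 and 1027 in the knockout. miR-17-5p was therefore above miR-20a-5p in Tex15KO replicates 2 and 3. The ratio was -0.90 for miR-20a-5p, -0.65 for miR-106b-5p, -0.62 for miR-20b-5p, -0.56 for miR-93-5p and -0.50 for miR-106a-5p. These are ratios of mean RPM without TMM factors, unlike the fitted values given earlier. In the TMM-scaled fit of the same count, the 6 members had log2 fold changes of -0.76 to -0.36. Their median was -0.49, against -0.61 in the fit of mature reads. miR-17-3p was also without overlap in this count, at 31.9 to 38.2 and 26.4 to 30.6. Over all names with as many reads, 21.4% were lower in every knockout library and 5.76% higher. miR-25-3p, miR-92a-3p, miR-363-3p, miR-18a-5p and both miR-19 members counted this way overlapped.

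**Figure D4:**
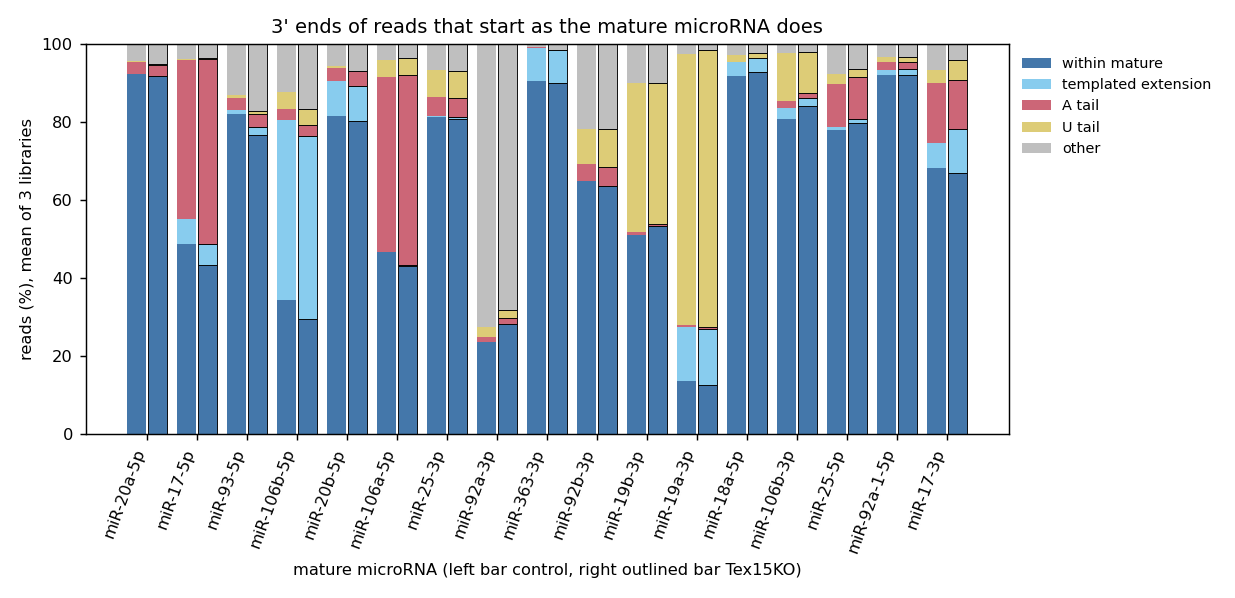
Mean share, in percent of 3 libraries, of listed reads that begin as each of 17 members and end within the mature sequence, in a templated extension, in a tail of A, in a tail of U, or otherwise (left bar control, right outlined bar Tex15KO). A tails stand out in miR-17-5p and miR-106a-5p, U tails in the miR-19 members and other ends in miR-92a-3p.

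The 188 names with a mean of at least 100 RPM were compared with the sum of all members. Those most like it were found by the Pearson correlation of log2 levels with the log2 sum over the 6 libraries. They were miR-140-3p (r = 0.980), miR-361-5p (0.950), miR-191-5p (0.949), miR-103-3p (0.949) and miR-30a-5p (0.947). These values describe 6 libraries that share 2 genotypes and a common denominator. Most of the sum was miR-25-3p. In RPM the sum was higher in every control library than in any knockout library, which did not hold with TMM scaling.

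Sorted gonocytes offered a view of the host transcripts and of the genes that the family is known to repress. Tex15 itself was at 1492, 1646 and 1645 counts per 1000000 (CPM, TMM scaled) in the control and 463, 228 and 247 in the knockout, so that every sample labelled Tex15-/- was below every sample labelled Tex15+/-. The small RNA libraries hold no such check. Their titles, genotype labels and the library names within the files agree on the groups, although the run names carry a T for control and a C for knockout, the reverse of the gonocyte run names. Its log2 fold change was -2.35 ± 0.23 (SE; adjusted p = 0.0112, edgeR quasi-likelihood test), and 0% of the 16311 genes tested were called lower or higher at an adjusted p under 0.01, 0.0123% lower and 0.00613% higher at 0.05, and 1501 genes had an unadjusted p under 0.05. The gene counts held 4893265 to 5697020 reads for each sample. Markers of other cell types were present in the sorted samples. The Sertoli cell markers Sox9, Amh and Wt1 summed to 4.36 to 4.56 CPM in the control and 5.35 to 55.6 in the knockout, and the Leydig cell markers Cyp17a1, Star and Insl3 to 14.2 to 37.4 and 24.7 to 343, with Tex15KO replicates 2 and 3 high. The endothelial markers Pecam1 and Cdh5 summed to 35.4 to 39.4 and 26.3 to 123, with Tex15KO replicate 2 high, and blood markers to 0.543 to 0.729 and 0.990 to 2.52. Insl3 and Hba-a1 were at 0 in every control sample and in Tex15KO replicate 1. The germ cell markers (Ddx4, Dazl, Piwil4, Piwil2, Dppa3 and Nanos2) summed to 1851 to 2000 and 1804 to 1919. Of the 5 tested, none was called. Dazl was at 252 to 288 CPM in the control and 203 to 235 in the knockout, without overlap. Its log2 fold change was -0.28 (unadjusted p = 0.0191, adjusted p = 0.471, edgeR). The share of all genes whose groups did not overlap was not computed. Dppa3 had a log2 fold change of -0.64 (unadjusted p = 0.0407, adjusted p = 0.521, edgeR) with overlapping groups. Dazl and Dppa3 are named after their values were seen. The part of these other cells in the gene values that follow was not tested.

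Mir17hg, the transcript that carries the 6 hairpins of miR-17-92, was at 5.11, 5.15 and 6.88 CPM in the control gonocytes and 8.71, 5.04 and 15.1 in the knockout gonocytes. Tex15KO replicate 2 lay below the controls and the other 2 above them. The log2 fold change was 0.74 ± 0.40 (SE; adjusted p = 0.590, edgeR quasi-likelihood test). It was 0.27 without Tex15KO replicate 3 and 1.06 without Tex15KO replicate 2. Mcm7, a subunit of the replicative helicase and the host of miR-106b-25, was at 181, 159 and 196 CPM in the control and 176, 184 and 205 in the knockout, with overlapping groups (log2 fold change 0.07 ± 0.11, SE; adjusted p = 0.839). The RNA-seq is of germ cells and the small RNA of the whole organ, so that the levels of hosts and members cannot be set against each other directly. Of the MYC activators, Mycn was at 3.46 to 4.95 CPM in the control and 2.18, 8.82 and 6.03 in the knockout, with overlapping groups and a log2 fold change of 0.42 ± 0.48 (SE; adjusted p = 0.781, edgeR quasi-likelihood test) that was -0.041 without Tex15KO replicate 2. Myc, at 0.396 to 3.6003 CPM, was too low to be tested.

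Of 21 target genes, 20 were tested and none was called at an adjusted p under 0.01 or 0.05 by edgeR. Their median log2 fold change was 0.21, against -0.0003 over all genes tested, and the values ran from -0.29 to 1.34. Of the 20, 2 were below 0, against 8158 of all 16311 genes tested. The target list was not divided by seed family. The TGF-β receptor Tgfbr2 and the integrin subunit Itga5 had an unadjusted p under 0.05, as did 1501 of all 16311 genes tested (edgeR). Both are named although they fell outside the naming rule. Tgfbr2 was at 4.38, 3.17 and 3.62 CPM in the control and 3.76, 13.7 and 10.9 in the knockout. It was high in Tex15KO replicates 2 and 3, where the Sertoli cell markers were also high, and within the control range in replicate 1. Without Tex15KO replicate 1 it was called, with an adjusted p of 0.00902 (edgeR quasi-likelihood test). In that fit, which keeps the 2 knockout samples with high Sertoli and Leydig cell markers, 1.69% of 17520 genes were called higher and 0.525% lower. Itga5 was at 5.47, 4.16 and 4.89 CPM in the control and 6.93, 18.0015 and 7.91 in the knockout. It was highest in Tex15KO replicate 2, where the Leydig cell marker Cyp17a1 and the endothelial marker Cdh5 were also highest. The 10 genes of microRNA maturation, which include the nuclease Drosha with its partner Dgcr8, the exporter Xpo5, Dicer1 and the 4 Argonautes, had log2 fold changes between -0.33 and 0.26, and none was called. Hnrnpa1, which binds the miR-18a hairpin, had one of 0.16.

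**Figure D5:**
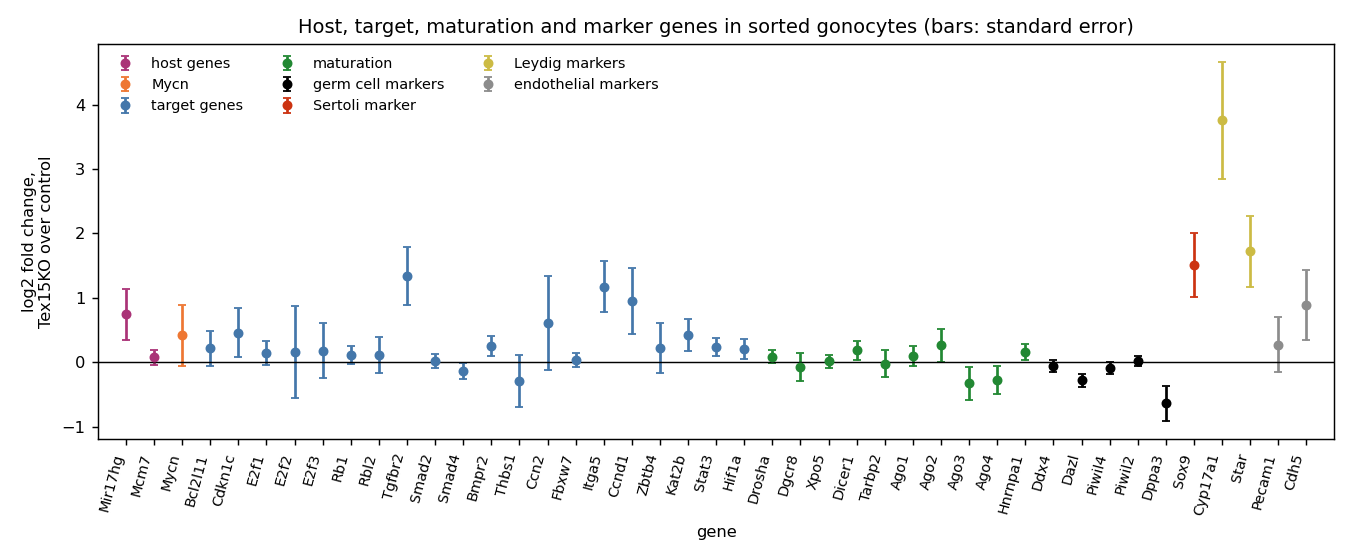
Log2 fold change (Tex15KO over control, edgeR) with its standard error for host, activator, target, maturation and marker genes tested in sorted E16.5 gonocytes. Most target and maturation genes lie near 0; Tgfbr2, at 1.34, is the highest target, and the Leydig cell marker Cyp17a1, at 3.76, the highest gene shown.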

How the data were processed

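Small RNA was sequenced from 3 Tex15+/- and 3 Tex15-/- pools of E16.5 testes, and RNA from gonocytes of both genotypes (3 each). The authors deposited read counts per distinct small RNA sequence with its class and name, and counts per Ensembl gene. The submitters' processing notes name cutadapt 1.8.1, Bowtie 1.2.1.1, HISAT2, HTSeq 0.11.1 and the builds mm10 and GRCm38. The deposited small RNA tables also hold the authors' scaling factor, 1000000 over the library's mature microRNA reads. Mature reads numbered 5671330 to 34180789 a library and gonocyte gene reads 4893265 to 5697020. Repeats were matched with up to 3 mismatches. Rows without a gene, 61.3 to 67.3% of gonocyte reads, were left out.

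Counts were summed per mature name over distinct sequences. Names or genes passing filterByExpr were compared with edgeR 4.0.16 (quasi-likelihood, TMM, R 4.3.3), with Benjamini-Hochberg adjustment over all tested and a call at adjusted p under 0.01; arm and 5′ end shares by two-sided exact permutation tests (scipy 1.17.1). DESeq2 1.42.0 was an alternative. RPM is reads per 1000000 mature microRNA reads. SE is the log2 fold change over the root of the F statistic. Arm and 5′ end shares needed 50 reads in every library. The scripts were tested on simulated counts. Of 54838 gene identifiers, 54723 had a symbol. No replicate pair agreed within sampling noise (chi-square).

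Every member is accounted for: those with a mean of at least 100 RPM, or an adjusted p under 0.05, are given in every library and the others by range. Mir17hg and Mcm7 are always given, other listed genes with an adjusted p under 0.05. The 5 names most like the member sum are given. Of the target list, 1 gene is not reported here and was left out of its counts. Members, lists and rules were chosen with earlier results of these data known. Intervals and limits at 0 reads cover counting error only.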

Additional observations from a re-analysis of the deposited data

How the results depend on the processing

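The count of members called was 0 in each direction under every alternative: other scalings and filters, DESeq2, an adjusted p under 0.05, sequences within 1 mature microRNA or split among several, the replicate block, each library left out, and 2 chosen after seeing the data (reads of any class, and edgeR's newer quasi-likelihood estimate). No member sequence was listed under several names, so shared sequences were found from RefSeq; 2 sequences, 0.00787% of member reads, were shared. The replicate block changed no call: 0 members and 0 host, activator, target or maturation genes were called with it. The pairing rests on the numbers alone; deviations of same-numbered libraries correlated at 0.05, 0.17 and 0.20, every small RNA library correlated best with its own number, and gonocyte samples at -0.14, -0.04 and -0.01.

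The miR-106b-25 log2 ratio changed sign with all reads of 18 to 32 nt as denominator (0.049) and with TMM factors, chosen after seeing the data (0.079), as did that of miR-106a-363 (0.056 and 0.064; 0.070 without Tex15KO replicate 1). miR-25-3p changed sign without TMM factors (-0.080). Over all names, calls at 0.01 numbered 0 by edgeR, 11 by DESeq2 and 7 without the filter, and at 0.05 5, 16 and 16. Gonocyte genes called at 0.01 numbered 0 by edgeR, 4 lower and 10 higher by DESeq2, 43 and 445 without the filter, and 92 and 296 without Tex15KO replicate 1. Leaving out 1 library gave 2 to 4 hairpins without overlap in arm share and 1 to 3 members in 5′ end share, where fewer libraries are compared, and a miR-363-3p difference of -0.13 to 1.61 percentage points (negative without Tex15KO replicate 2). Counting each distinct sequence once gave 2 members without overlap in 5′ end share; the cause was not tested. Without Tex15KO replicate 1, 1 host, activator, target or maturation gene (Tgfbr2) was called, and 0 without any other sample; Mcm7 ranged over -0.0020 to 0.15 with 1 sample left out, negative without control replicate 2. Of the other alternatives, 121 summary values and 132 values of single members or genes kept their direction and side of the threshold or moved within the replicate spread. Members under 1 RPM rest on few reads, and 3 libraries a group cannot give a permutation p under 0.10.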
